A study of Mus musculus with 4 samples.

Results

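The genes of Wnt signalling described here are 19 Wnt ligands, 12 receptor genes (10 Frizzled genes, Lrp5 and Lrp6), 9 secreted inhibitors (Dkk and Sfrp genes and Wif1), the cytoplasmic genes Axin1, Apc and Ctnnb1, and Axin2, Sp5, Lef1 and Tcf7, which are targets or nuclear factors of the pathway. They were chosen by the gene names printed on the array. The rule used no measured value, but it was set with earlier results of these data known. These 47 genes, of the 27745 gene names on the array, were read by 69 of its 41174 gene probes. In all, 58 probes of 42 genes entered the tests below.

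Mouse RNA was compared on 4 Agilent whole-genome arrays with 2 colours. On 2 of them the red channel was a clone of induced pluripotent stem cells (iPS cells), taken 30 days after transduction, and on the other 2 mouse embryonic fibroblasts (MEFs). The green channel was on every array CGR8.8, a line of embryonic stem cells (ES cells). The iPS and ES cultures received LIF, the cytokine that holds mouse stem cells in the undifferentiated state, at 1000 IU/ml. The MEFs had been passaged several times before harvest. The labels call the arrays of a group biological replicates without saying whether cultures or dishes were separate. The p-values and SEs therefore rest on a spread between replicate arrays that may be technical. That spread was taken over all 4 arrays together and drawn by limma towards the spread of all tested probes, so it is not that of 1 group's 2 arrays. The iPS RNA came from 1 clone, and the labels give neither its parent strain nor the transduced factors.

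Wnt proteins are lipid-modified secreted ligands that bind a Frizzled receptor together with the co-receptor Lrp5 or Lrp6. Without a ligand, a complex of Axin, Apc and kinases marks β-catenin (Ctnnb1) for degradation. With a ligand, β-catenin accumulates and acts with the Tcf and Lef DNA-binding proteins on targets such as Axin2, Sp5 and Lef1. In mouse ES cells the pathway is known both for helping to maintain pluripotency and for the induction of primitive streak genes such as T (brachyury).

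Every value below is a log2 ratio of red over green on one array after background correction and loess normalization, so that ES cells stand at 0, unless it is named as a level. A probe was called higher or lower at a Benjamini-Hochberg adjusted p under 0.05 over all 24874 tested probes in limma together with at least a 2-fold difference. Since ES RNA was always green, a dye effect of single probes remains in the ratios over ES cells and cannot be told apart from the difference itself, whereas it cancels in iPS cells over MEFs. The fits over ES cells share the ES channel and leave out most of its own spread. In bulk RNA, fewer cells of a type and less RNA per cell cannot be told apart.

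Of the 58 tested probes, 2 were higher and 25 lower in iPS cells than in ES cells, in 2 and 19 genes. This was 46.6% of the Wnt probes, against 18.7% of all tested probes called either way, and the lower calls alone made up 43.1% against 10.7%. In MEFs 7 were higher and 19 lower than in ES cells, in 7 and 13 genes, which was 44.8% against 25.2% of all tested probes. Between iPS cells and MEFs 7 probes were higher and 15 lower in iPS cells, in 5 and 14 genes, or 37.9% against 33.1%, a share near that of all probes (higher calls 12.1% against 15.4%, lower calls 25.9% against 17.7%). The median log2 ratio over ES cells was -0.79 for the Wnt probes and -0.010 for all tested probes in iPS cells, and -0.17 and -0.012 in MEFs.

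No call was made for 20 of the Wnt probes in any of the 3 comparisons. Without the fold requirement, 49 of the 58 probes had an adjusted p under 0.05 when iPS cells were set against ES cells, where 78.1% of all tested probes had one. The count was 53 of 58 when MEFs were set against ES cells, where 82.5% of all tested probes had one, and 44 of 58 between iPS cells and MEFs, against 79.8%. Without the fold limit, the Wnt shares were thus somewhat above those of all probes in both comparisons with ES cells. Between iPS cells and MEFs the Wnt share was somewhat below.

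**Figure D1:**
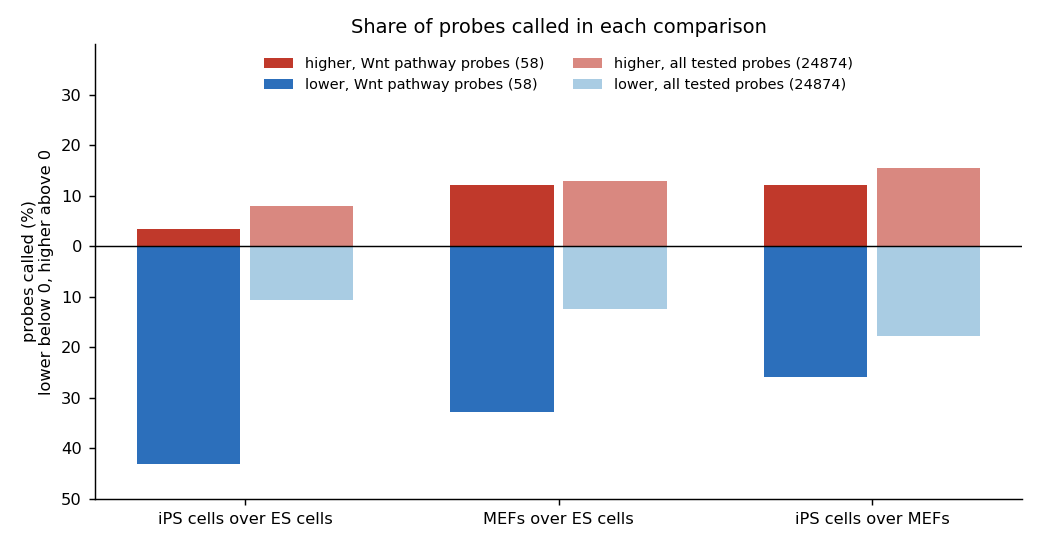
Share of probes called in each comparison, in percent, with higher calls above 0 and lower calls below it, for the 58 tested Wnt probes (dark) and all 24874 tested probes (light). Lower calls reach 43.1% of the Wnt probes in iPS cells over ES cells, against 10.7% of all probes.

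Fewer Wnt probes gave a signal in iPS cells than in the other cells. Of the 69 probes, 47 were well above background on both iPS arrays (68.1%), 59 on both MEF arrays (85.5%) and 57 in the ES channel of all 4 arrays (82.6%). Over all gene probes the shares were 60.3% in iPS cells, 59.6% in MEFs and 60.2% in ES cells. The ligand probes showed the widest gap of the 5 roles: 12 of 23 were above background in iPS cells, against 19 of 23 each in MEFs and in ES cells. The ES share asks for 4 arrays and the others for 2, which makes it the stricter of them. Of the 11 probes that were not tested, 7 were too dim and 4 had a spot marked as an outlier by the scanner software. Dkk4, Sfrp5, Wnt8b, Fzd1 and Wnt16 had no tested probe.

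**Figure D2:**
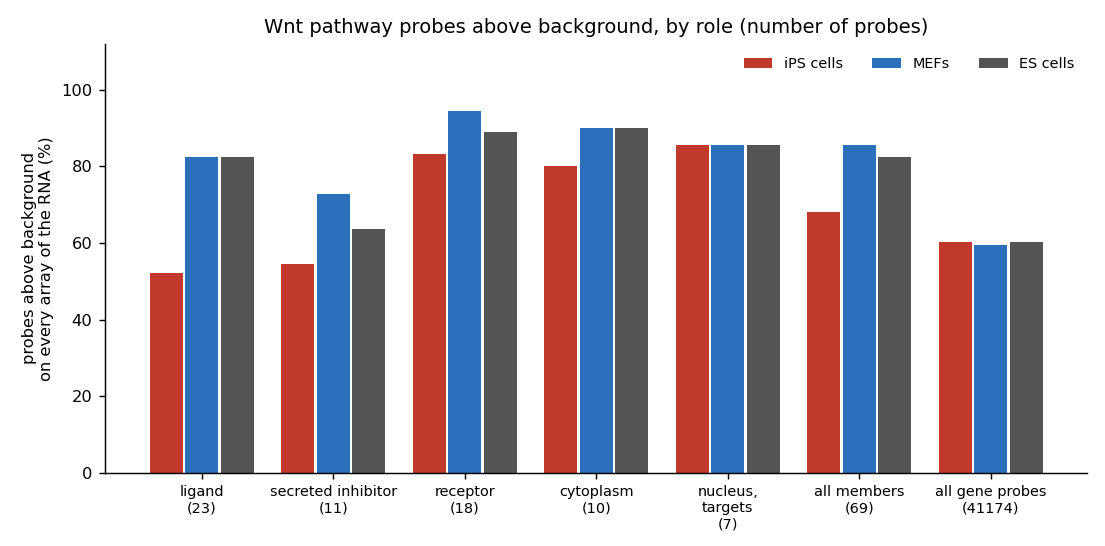
Percent of probes well above background on every array of an RNA, by role of the gene, with the number of probes in brackets and bars for iPS cells, MEFs and ES cells. Ligand probes stand at 52.2% in iPS cells and 82.6% in both MEFs and ES cells, while all gene probes stand between 59.6% and 60.3% in each.

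Among the ligands, 13 of 19 tested probes (11 genes) were lower in iPS cells than in ES cells and none was higher, against 10.7% lower and 8% higher of all tested probes. In MEFs 9 (7 genes) were lower and 2 higher, against 12.4% and 12.8%. Wnt3, a ligand needed for the mouse primitive streak, read -4.03 and -4.26 on the iPS arrays and -4.17 and -4.08 on the MEF arrays with its probe at chr11:103633814-103633873 (mm8, plus strand). The fits were -4.14 ± 0.065 in iPS cells and -4.13 ± 0.065 in MEFs (SE, n = 2 arrays each), with limma adjusted p of 8.04e-09 and 6.45e-09. All 4 arrays were thus far below ES cells, and the groups overlapped. The second Wnt3 probe was not tested because of a marked spot on 1 iPS array, and read -3.10 on the other iPS array and -3.01 and -2.95 on the MEF arrays.

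Wnt6 and Wnt8a followed the same direction. Wnt6 read -3.27 and -3.44 on the iPS arrays and -3.70 and -3.50 on the MEF arrays with the brighter of its probes, and -2.81 and -2.99 against -2.99 and -2.77 with the other. Wnt8a, a ligand of the early embryo's streak, read -2.91 and -2.72 in iPS cells and -3.72 and -3.46 in MEFs. Every array read both genes far below ES cells, between -2.72 and -3.72. Wnt10a read -2.65 and -2.51 in iPS cells and -1.68 and -1.65 in MEFs, so its iPS values were the lower ones without overlap, while the difference between them, under 2-fold, was not called.

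Wnt4 and Wnt9a separated the iPS clone from MEFs. Wnt9a read -3.14 and -3.18 in iPS cells and -0.12 and -0.20 in MEFs with its tested probe, a difference of -3.00 ± 0.069 (limma adjusted p = 2.85e-08). Its other probe was not above background in any of the RNAs. Wnt4, a ligand of kidney and gonad development, read -2.67 and -2.75 in iPS cells and -1.10 and -1.01 in MEFs, a difference of -1.66 ± 0.073 (limma adjusted p = 6.26e-07). Neither pair of groups overlapped.

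Smaller deficits were found for Wnt5b, Wnt7a, Wnt10b and Wnt11. The brighter Wnt5b probe read -1.78 and -1.96 in iPS cells and -1.74 and -1.68 in MEFs, and the other -1.41 and -1.58 against -1.29 and -1.27. Wnt7a read -1.53 and -1.50 in iPS cells and -1.48 and -1.20 in MEFs. The second Wnt5b probe and Wnt7a were above background on only 1 of the 2 iPS arrays. Wnt10b was not well above background on either iPS array and was at least 2.92-fold lower in iPS cells than in ES cells (limma adjusted p = 1.76e-07). In MEFs it read -0.87 and -0.81, below the fold limit. Wnt11, usually assigned to non-canonical signalling, read -1.02 and -1.16 in iPS cells and 0.15 and 0.09 in MEFs, and was lower in iPS cells than in either of the others.

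The ligands higher in MEFs than in ES cells were Wnt2 and Wnt5a. Wnt2 read 3.10 and 3.15 in MEFs, a fit of 3.13 ± 0.056 (limma adjusted p = 9.05e-09). On the iPS arrays it was not well above background and read -1.09 and -0.93, so no fold is given there (limma adjusted p = 2.35e-06 over ES cells and 1.41e-08 over MEFs). Wnt5a, the main non-canonical ligand, read 1.15 and 1.21 in MEFs and -0.58 and -0.50 in iPS cells, where it was again not well above background. It was at least 2.95-fold lower in iPS cells than in MEFs (limma adjusted p = 4.11e-07). On both ligands the MEF arrays thus lay above ES cells and the iPS arrays below them.

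Wnt3a alone among the ligands was called higher in iPS cells than in MEFs. It read 0.26 on both iPS arrays and -0.92 and -0.99 in MEFs, where it was not well above background, so that no fold is given (limma adjusted p = 2.19e-06). The difference from ES cells stayed under 2-fold in iPS cells (0.26 ± 0.048). In MEFs over ES cells it was not called, and no fold is given there either. Wnt1, Wnt2b, Wnt7b and Wnt9b were not called in any comparison. The Wnt1 probe was printed 10 times on each array, which gives a measure of spread within an array: its 8 to 10 unmarked spots had an SD between 0.076 and 0.10, around means of -0.024 and 0.0010 in iPS cells and 0.26 and 0.28 in MEFs.

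**Figure D3:**
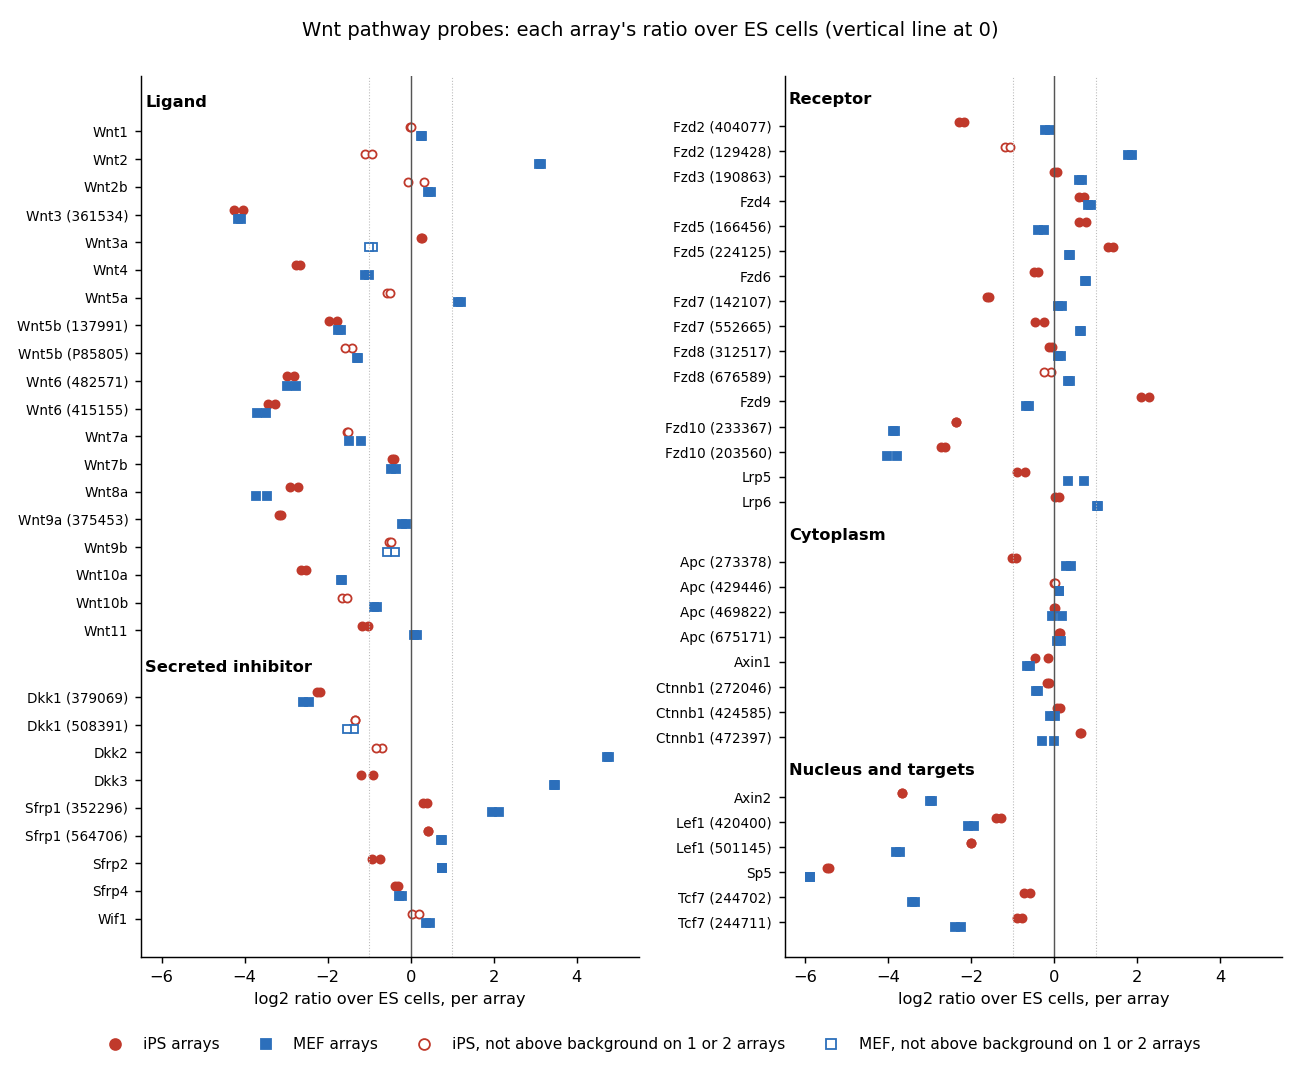
The log2 ratio over ES cells on each array for the 58 tested Wnt probes, grouped by role, with iPS arrays as circles and MEF arrays as squares. Hollow symbols mark an RNA in which the probe was not well above background on 1 or both of its arrays. Numbers in brackets are the last digits of the probe name where a gene has several probes, and dotted lines mark 2-fold. Sp5, Wnt3 and Wnt6 lie far below 0 in both, while Dkk2, Dkk3 and Wnt2 lie above 0 only on the MEF arrays.

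Among the receptors, 2 of 16 tested probes were higher and 5 lower in iPS cells than in ES cells, or 43.8% against 18.7% of all tested probes. In MEFs 2 were higher and 2 lower, or 25% against 25.2%, the share of all probes. Fzd10 accounted for both lower calls in MEFs. Its probes read -2.37 and -2.38 and, for the second, -2.63 and -2.73 in iPS cells. On the MEF arrays they read -3.89 and -3.84, and -4.02 and -3.78. The 2 probes, at chr5:128917688-128917747 and chr5:128918631-128918690 (mm8, plus strand), gave the same order: MEFs lowest, then iPS cells, then ES cells. The iPS values exceeded those of MEFs by 1.49 ± 0.066 and 1.23 ± 0.096 (limma adjusted p = 6.26e-07 and 1.38e-05). These differences turned to -0.34 and -0.41, without a call, when the background model was fitted over all spots, outlier-marked ones included.

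Fzd9 ran the other way in the iPS clone. It read 2.10 and 2.29 on the iPS arrays, 4.57-fold above ES cells, and -0.69 and -0.61 on the MEF arrays. The difference between iPS cells and MEFs was 2.84 ± 0.085 (limma adjusted p = 9.26e-08), the largest positive one among the Wnt probes. It rests on the only Fzd9 probe, whose accession was not in the RefSeq table. Fzd5 was higher in iPS cells than in ES cells with the dimmer of its probes (1.30 and 1.42 on the arrays). Its brighter probe read 0.76 and 0.60 and was not called. Over MEFs both Fzd5 probes came to 1.00, just under the fold limit.

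Fzd2 and Fzd7, close relatives, were lower in iPS cells. The Fzd2 probe at chr11:102422389-102422448 (mm8, plus strand) read -2.17 and -2.30 in iPS cells and -0.24 and -0.11 in MEFs. The other Fzd2 probe read -1.19 and -1.08 in iPS cells, where it was not well above background, and 1.78 and 1.88 in MEFs. On that probe MEFs were higher than ES cells (1.83 ± 0.054), and iPS cells were at least 2.12-fold lower than ES cells and at least 7.63-fold lower than MEFs. Fzd7 read -1.63 and -1.57 in iPS cells and 0.10 and 0.18 in MEFs with the probe at chr1:59429069-59429128, and -0.48 and -0.25 against 0.63 and 0.62 with its second probe, which was not called.

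The 2 probes of Fzd2 and Fzd7 that read most alike are also alike in sequence. Aligned without gaps, 42 of 50 overlapping bases are identical, the best match among the 2312 pairs of probes of different Wnt genes, with a longest identical run of 14 bases. They are shown because the 2 readings rest on letters that are largely the same; whether either probe picks up RNA of the other gene was not tested. Capitals mark the bases identical in the alignment.
Fzd2: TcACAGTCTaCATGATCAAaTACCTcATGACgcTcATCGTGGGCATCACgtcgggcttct
Fzd7: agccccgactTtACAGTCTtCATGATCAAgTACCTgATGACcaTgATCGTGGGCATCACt
The next best pair, of Fzd7 and Fzd8, shares 33 of 48 bases, and no other pair shares more than 29. The second probe of each gene lies outside this stretch, and on it iPS cells read below MEFs for both genes, with a call for Fzd2 only.

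The other tested receptors were Fzd6, Lrp5, Lrp6, Fzd3, Fzd4 and Fzd8. Fzd6 read -0.39 and -0.50 in iPS cells and 0.76 and 0.74 in MEFs, and was lower in iPS cells than in MEFs (-1.20 ± 0.071, limma adjusted p = 3.03e-06). Of the co-receptors, Lrp5 read -0.70 and -0.90 in iPS cells and 0.33 and 0.71 in MEFs, and was lower in iPS cells than in MEFs (-1.32 ± 0.13). Lrp6 read 0.03 and 0.11 in iPS cells and 1.05 and 1.04 in MEFs, and was higher in MEFs than in ES cells (1.05 ± 0.048). Fzd3, Fzd4 and Fzd8 were not called in any comparison. Fzd1 was not tested, since its MEF replicate 1 spot was marked. It read -2.15 and -2.09 on the iPS arrays and 2.58 on the remaining MEF array.

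Among the secreted inhibitors, Dkk2 and Dkk3 showed the widest contrast. Dkk2, a ligand of Lrp5 and Lrp6 that can block or weakly activate the pathway, read 4.78 and 4.72 in MEFs with its probe at chr3:132116699-132116758 (mm8, plus strand), a fit of 4.75 ± 0.055, or 27.0-fold above ES cells (limma adjusted p = 3.74e-09). On the iPS arrays it read -0.69 and -0.85 and was not well above background, which puts it at least 1.65-fold below ES cells and short of a call. Against MEFs its limma adjusted p was 5.93e-09, and no fold is given. Dkk3, a more distant Dickkopf relative, read -0.90 and -1.20 in iPS cells and 3.49 and 3.47 in MEFs, a difference of -4.53 ± 0.10 (limma adjusted p = 2.7e-08). Both iPS arrays were below ES cells and both MEF arrays far above them.

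Sfrp1 and Sfrp2 bind Wnt ligands outside the cell. Sfrp1 read 0.40 and 0.29 in iPS cells and 1.96 and 2.12 in MEFs with its brighter probe, and was higher in MEFs than in ES cells by 2.04 ± 0.059. Its other probe read 0.42 on both iPS arrays and 0.76 and 0.73 in MEFs and was not called. Sfrp2 read -0.73 and -0.94 in iPS cells and 0.75 and 0.76 in MEFs, and was lower in iPS cells than in MEFs (-1.59 ± 0.087, limma adjusted p = 1.92e-06). Sfrp4 and Wif1 were not called in any comparison.

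Dkk1, an inhibitor that is itself a β-catenin target, did not share the fibroblast side of Dkk2 and Dkk3. Its brighter probe read -2.17 and -2.27 in iPS cells and -2.59 and -2.45 in MEFs. Its second probe was not well above background in iPS cells or in MEFs, at least 2.36-fold below ES cells in iPS cells and at least 2.39-fold in MEFs. Both probes were lower than in ES cells in both cell types.

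In the cytoplasm none of 8 tested probes was called over ES cells in iPS cells or in MEFs, against 18.7% and 25.2% of all tested probes. The 3 Ctnnb1 probes ranged between -0.15 and 0.64 in iPS cells and between -0.42 and -0.043 in MEFs. On the array values, the brightest read 0.13 and 0.05 in iPS cells and 0.01 and -0.09 in MEFs. The second read 0.62 and 0.65 in iPS cells and 0.0036 and -0.29 in MEFs. The remaining one, printed 10 times, read -0.12 and -0.18 in iPS cells and -0.39 and -0.45 in MEFs, with an SD over its spots of 0.039 to 0.062. Axin1 read -0.15 and -0.47 in iPS cells and -0.60 and -0.66 in MEFs (fits of -0.31 ± 0.076 and -0.63 ± 0.076).

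The 4 tested probes named Apc did not all read alike. That of the highest intensity read -1.02 and -0.91 in iPS cells and 0.40 and 0.28 in MEFs, and was lower in iPS cells than in MEFs (-1.31 ± 0.078, limma adjusted p = 3.02e-06). It just missed the fold limit over ES cells in iPS cells (-0.97 ± 0.055). The other 3 lay between -0.0012 and 0.13 in iPS cells and between 0.063 and 0.12 in MEFs, and none was called. The call therefore rests on 1 of the 4 tested Apc probes, and that probe's accession was not in the RefSeq table. Of the untested Apc probes, A_52_P284981 was too dim. A_52_P633752 had a marked spot on MEF replicate 1, and read 0.30 and 0.24 in iPS cells and -0.048 on the remaining MEF array.

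All 6 tested probes of the nuclear factors and targets were lower in MEFs than in ES cells, and 4 of the 6 were lower in iPS cells, against 12.4% and 10.7% of all tested probes. Sp5, a zinc finger target of β-catenin, showed the lowest ratio of all Wnt probes. Its probe at chr2:70278470-70278529 (mm8, plus strand) read -5.44 and -5.49 in iPS cells and -5.90 and -5.89 in MEFs. The fits were -5.47 ± 0.047, or 44.2-fold below ES cells, for iPS cells and -5.89 ± 0.047, or 59.5-fold, for MEFs (limma adjusted p = 3.31e-09 and 3.74e-09). The iPS cells were closer to MEFs than to ES cells, with a difference of 0.43 ± 0.066 that was not called.

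Axin2, a negative regulator and standard readout of β-catenin activity, read -3.66 and -3.68 in iPS cells and -2.94 and -2.99 in MEFs (chr11:108766756-108766815, mm8, plus strand). The fits were -3.67 ± 0.047 in iPS cells and -2.96 ± 0.047 in MEFs. The iPS clone was thus below MEFs on every array, by -0.71 ± 0.066, which was under the fold limit.

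Lef1 and Tcf7, which encode DNA-binding partners of β-catenin, lay between MEFs and ES cells in the iPS clone. The Lef1 probe of higher intensity read -2.00 and -2.01 in iPS cells and -3.82 and -3.72 in MEFs, a difference of 1.77 ± 0.071 (limma adjusted p = 3.82e-07). The accession of that probe was not in the RefSeq table. The second, whose mm8 position spans 18162 bases, was matched to Lef1 in RefSeq. It read -1.29 and -1.41 in iPS cells and -2.07 and -1.94 in MEFs, and the 0.66 ± 0.081 between them was not called. The Lef1 call between iPS cells and MEFs therefore rests on the probe without a RefSeq match. The Lef1 probe that remains was not above background in any RNA. Tcf7 read -0.58 and -0.72 in iPS cells and -3.44 and -3.36 in MEFs with its brighter probe, and -0.77 and -0.89 against -2.40 and -2.26 with the other. Tcf7 was higher in iPS cells than in MEFs by 2.75 ± 0.078 and 1.50 ± 0.082 (limma adjusted p = 7e-08 and 1.97e-06), and was not called between iPS cells and ES cells.

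**Figure D4:**
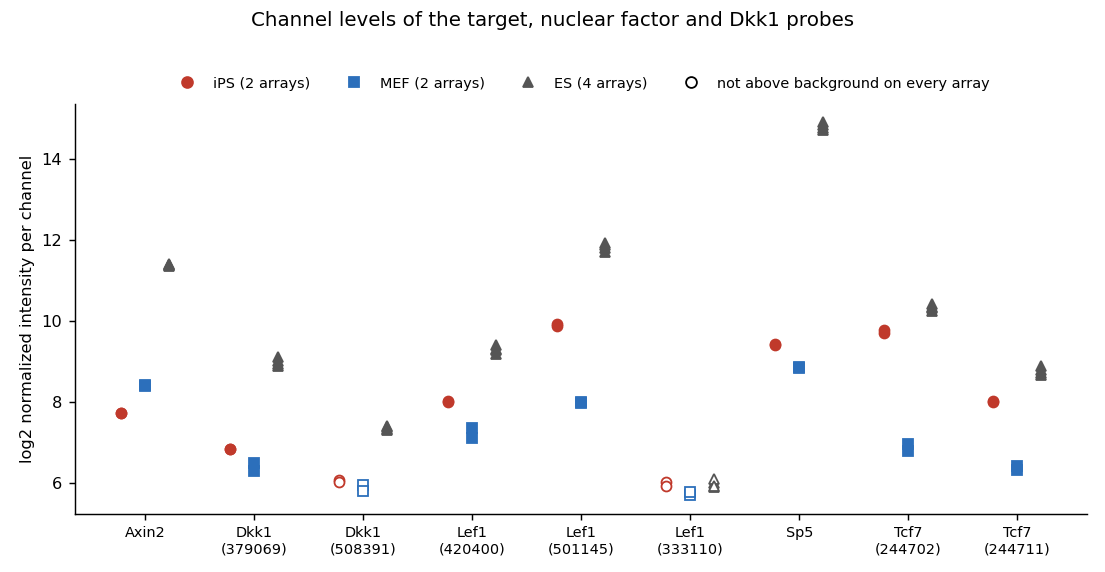
Log2 normalized intensity in each channel for the probes of Axin2, Lef1, Sp5 and Tcf7 and of Dkk1, with iPS arrays as circles, MEF arrays as squares and the ES channel of all 4 arrays as triangles; hollow symbols mark an RNA not well above background on all of its arrays. Levels can be compared within a probe only. The ES level of Sp5 averages 14.8, against 9.42 in iPS cells and 8.86 in MEFs, while Tcf7 in iPS cells stands next to ES cells.

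The 250 bases before the start sites were read for the letters CTTTGAA and CTTTGAT, which match the core bound by Tcf and Lef proteins, on both strands; no matches overlapped. RefSeq promoters (GRCm38.p6) were matched for 31 of the 47 genes, and 4 of these held a match: Sp5, Dkk1, Wnt5b and Wnt11. This was 12.9% of the matched genes, against 8.63% of all genes in the table; by window it was 4 of 39, or 10.3%, against 7.48% of 32851. Wnt5b has 3 windows and Wnt11 has 2, with a match in 1 of them each. The windows of Axin2, Lef1 and Tcf7 held none of these letters. The first 3 are shown because their genes were lower than in ES cells in both iPS cells and MEFs; capitals mark the match. For Sp5 the window is chr2:70474673-70474922 (plus strand), with the match starting 104 bases before the start site. For Dkk1 it is chr19:30549497-30549746 (minus strand), with the match starting 117 bases before. For Wnt5b it is chr6:119449387-119449636 (minus strand), with the match starting 71 bases before.
Sp5: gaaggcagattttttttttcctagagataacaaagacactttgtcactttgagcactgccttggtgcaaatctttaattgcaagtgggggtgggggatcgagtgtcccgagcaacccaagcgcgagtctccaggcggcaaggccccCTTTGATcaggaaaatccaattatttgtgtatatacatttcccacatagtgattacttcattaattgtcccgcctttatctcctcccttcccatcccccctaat
Dkk1: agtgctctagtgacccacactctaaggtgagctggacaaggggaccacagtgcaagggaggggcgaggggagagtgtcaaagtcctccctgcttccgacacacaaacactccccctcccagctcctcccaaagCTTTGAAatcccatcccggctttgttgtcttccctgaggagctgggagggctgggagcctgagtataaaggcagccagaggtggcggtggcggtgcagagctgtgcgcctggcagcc
Wnt5b: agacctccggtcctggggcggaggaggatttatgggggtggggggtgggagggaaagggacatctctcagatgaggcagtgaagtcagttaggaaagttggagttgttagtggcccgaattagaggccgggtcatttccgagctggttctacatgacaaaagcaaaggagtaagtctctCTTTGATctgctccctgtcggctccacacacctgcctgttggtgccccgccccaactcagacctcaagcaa

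Between iPS cells and MEFs, where the dye effect cancels, the 15 lower probes were of Dkk2, Dkk3, Wnt2, Wnt9a, Fzd2, Fzd7, Wnt5a, Sfrp1, Wnt4, Sfrp2, Lrp5, Apc, Wnt11 and Fzd6. The 7 higher were of Fzd9, Tcf7, Lef1, Fzd10 and Wnt3a. Of 13 genes with several tested probes, 9 had the same call on all of them, 4 had probes with and without a call, and none had opposite calls. Over ES cells the probes of 11 of the 13 genes had the same call in iPS cells, and of 11 in MEFs.

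**Figure D5:**
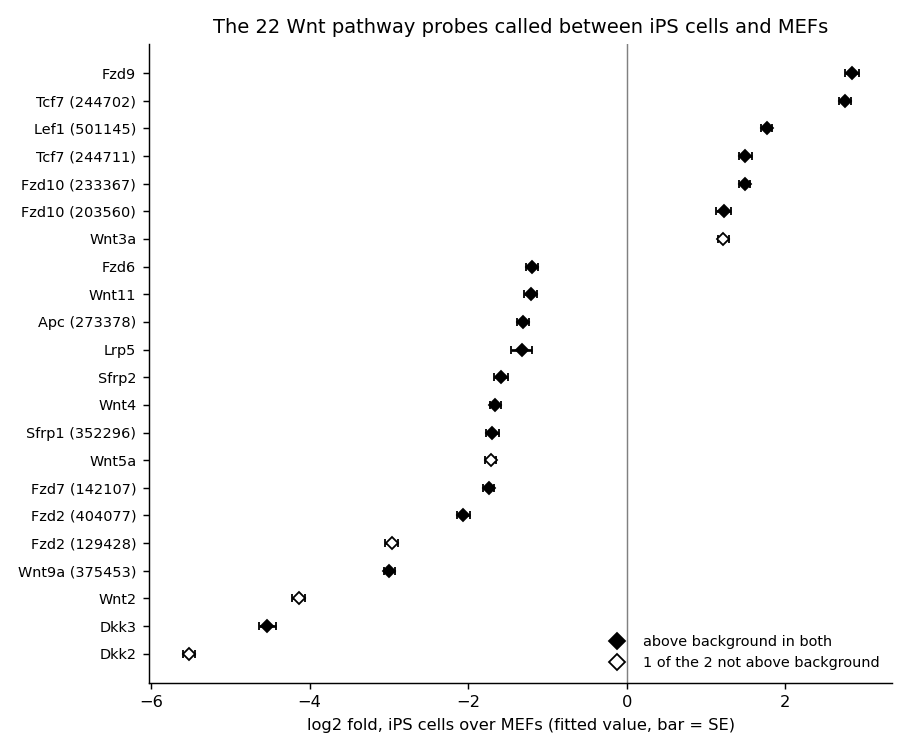
Fitted log2 fold of iPS cells over MEFs with its SE for the 22 Wnt probes called in this comparison; hollow diamonds mark probes not well above background in 1 of the 2 cell types, whose fitted value is not a measured size. Fzd9 and Tcf7 stand highest at 2.84 and 2.75, and Dkk2 and Dkk3 lowest.

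A list of 56 further Wnt pathway genes gave 49 that could be tested, each by its brightest probe. Against ES cells 3 were higher and 12 lower in iPS cells, or 6.12% and 24.5% of the list, where the 17241 tested gene names of the array taken the same way gave 9.09% and 11.9%. In MEFs 9 were higher and 9 lower, 18.4% each, where those gene names gave 14% and 13.7%. Between iPS cells and MEFs 5 were higher and 17 lower in iPS cells, or 10.2% and 34.7%, where those gene names gave 17% and 19.1%. The shares called in either direction were 30.6%, 36.7% and 44.9% of the list in these 3 comparisons, against 21%, 27.7% and 36.1% of the gene names. Wls, which carries Wnt proteins to the cell surface, read -4.55 and -4.54 in iPS cells and 1.31 and 1.26 in MEFs, and its other probe was also lower in iPS cells than in ES cells (-2.04). Porcn, the enzyme that attaches the lipid to Wnt proteins, ran opposite with 1.47 and 1.46 in iPS cells and -0.88 and -0.79 in MEFs. The 2 genes of ligand export thus had opposite signs in the same clone.

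Of further targets, T read -4.25 and -4.29 in iPS cells and -4.51 and -4.28 in MEFs. Ccn4 read -4.38 and -4.32 in iPS cells and 1.69 and 1.74 in MEFs, and Cd44 -2.24 and -2.18 in iPS cells and 3.51 and 3.65 in MEFs. T was thus lower than in ES cells in both cell types, while Ccn4, on its 1 probe, and Cd44, on its brightest, were lower in the iPS clone and higher in MEFs. The 3 Cd44 probes differed widely, with fits between -2.21 and -0.028 in iPS cells and between 0.20 and 4.60 in MEFs. Nkd1, a feedback inhibitor of the pathway, read -2.55 and -2.37 in iPS cells and -2.49 and -2.46 in MEFs, while its second probe stayed under the fold limit in both (-0.84 in iPS cells and -0.73 in MEFs).

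Nuclear repressors of the pathway differed from each other. Tcf7l1, a Tcf protein that represses targets in ES cells, read 0.99 and 1.02 in iPS cells and -1.29 and -1.23 in MEFs. Tle4, a corepressor, read 0.53 and 0.63 in iPS cells and -2.55 and -2.65 in MEFs, whereas Tle2 read 1.52 and 1.75 in iPS cells and 2.73 and 2.78 in MEFs. Tle4 and Tcf7l1 were higher in iPS cells than in MEFs (3.18 ± 0.075 and 2.27 ± 0.067), and Tle2 was lower (-1.13 ± 0.091). Cthrc1, a secreted modulator of Wnt receptors, read -0.87 and -1.03 in iPS cells and 4.29 and 4.06 in MEFs, whereas its other probe gave -0.055 in iPS cells and 0.43 in MEFs.

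Markers of cell types were each read by the brightest tested probe of the gene. All 8 fibroblast markers were higher in MEFs than in ES cells. In iPS cells 6 of 8 were lower than in ES cells, the lowest being Col1a1 at -5.77 ± 0.048. Other tested probes of the collagen genes differed, with fits in iPS cells over ES cells reaching -0.49 for Col1a1, -0.086 for Col1a2 and -0.094 for Col3a1. In MEFs over ES cells the lowest Col1a2 probe was at 0.54. The summed normalized intensity of the 8 was 2066 to 2081 in iPS cells, 494925 to 503547 in MEFs and 22374 to 32981 in the ES channel. Of the 7 pluripotency markers on the array, 5 were higher and 1 lower in iPS cells than in ES cells (Pou5f1, -1.35 ± 0.078), and all 7 were lower in MEFs. Their sum was 48214 to 49365 in iPS cells, 935 to 1066 in MEFs and 21091 to 23422 in the ES channel.

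Primitive streak and mesoderm markers were lower than in ES cells for 2 of 5 genes in iPS cells, T and Mixl1, and for 4 of 5 in MEFs; their sum was 1386 to 1398 in iPS cells, 853 to 947 in MEFs and 4732 to 5232 in the ES channel. All 5 simple epithelial markers were lower than in ES cells in both iPS cells and MEFs, with sums of 28894 to 30817 in iPS cells, 21301 to 22335 in MEFs and 416352 to 443482 in the ES channel. Of macrophage, endothelial, neural and endoderm markers, 2 of 6, 3 of 4, 3 of 5 and 2 of 4 tested genes were called in iPS cells over ES cells, where 21% of all tested gene names were. The macrophage and neural calls were all lower. The endothelial ones were 2 higher and 1 lower, and the endoderm ones 1 higher and 1 lower. In MEFs over ES cells 2 of the 6 macrophage markers were higher (Adgre1 and Lyz2) and 1 lower (Cd68, -1.69), and of the 4 endothelial markers 1 was higher (Emcn, 5.07) and 1 lower (Kdr, -1.54). The Lyz2 probes differed, at 4.88 and 0.63. The part of these markers' cells in the Wnt results was not tested.

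The 4 arrays lay on 1 slide, so slide and scan did not separate the groups. The calls depend on the background model. With the background model fitted over all spots, outlier-marked ones included, 0 Wnt probes were called in MEFs over ES cells in limma, with 1 of 58 at an unadjusted p under 0.05. In iPS cells over ES cells 9 were lower. The array of MEF replicate 1 held 14 spots with a local background intensity above 500, which were not left out on their own. Leaving out that whole array under this model was chosen after seeing the data. With that array also left out, 7 were higher and 19 lower in MEFs over ES cells, and 25 lower in iPS cells over ES cells. The scanner software's own ratio called 14 Wnt probes higher in MEFs over ES cells, 13 higher and 23 lower in iPS cells over MEFs, and 5 higher in iPS cells over ES cells. That ratio also raised the calls over all 24874 tested probes. Higher calls were 4884 instead of 3174 in MEFs over ES cells, and 4073 instead of 1989 in iPS cells over ES cells. In iPS cells over MEFs 6627 were higher and 5859 lower, instead of 3828 and 4406.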

How the data were processed

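ES cell RNA carried Cy3 (green) and iPS or MEF RNA Cy5 (red), each made from 1 µg with an Agilent kit, as the labels' protocols state. Per the file headers, the authors read spots with Agilent Feature Extraction 10.5.1.1, and the deposited files give each spot's mean intensity, its local background intensity and the software's log10 ratio of red over green. The series' deposited table holds the same log10 ratios, largest difference 0. Positions are mm8, per the file headers.

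Background was removed from the mean signals by normexp (offset 50, fitted over spots without an outlier mark), normalized by loess (span 0.3) and averaged per probe in limma 3.58.1 (R 4.3.3). Marked spots were left out. Probes well above background on all arrays of at least 1 RNA and with values on all 4 arrays were tested with lmFit and eBayes (degrees of freedom: 2 residual, 4.91 prior), with 1 coefficient per group, and with p adjusted over all 24874 probes. The choice of unmarked spots followed an earlier look at these data. Correlations between replicate arrays over these probes were 0.989 for MEFs and 0.992 for iPS cells. The number of arrays, 2 per group, limits the precision.

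Where an RNA was not well above background, a fold is given as a lower bound ("at least"), from the brighter RNA's mean level against the higher of the dimmer probe's own level and the lowest level of any probe above background. It is left out where that bound exceeded the fitted fold. A gene's name is the array's own, and 61 of the 69 probes had an accession in the RefSeq table, under the same symbol in each case. Every Wnt gene with a called probe is named, with all its probes; Ctnnb1, Apc, Axin1, Axin2, Lef1, Tcf7, Sp5, Lrp5 and Lrp6 are given whatever they showed; of the further pathway list, the 3 largest called genes in each direction per comparison are named. Adgre1, Lyz2, Cd68, Emcn and Kdr were named after their values were seen. The members, gene lists and markers were chosen with earlier results of these data known. The fit was run on simulated data with independent noise and known changes, all beyond the fold limit. Those data held no dye effect, background or dim probes, so they could not test how these were handled. Alternatives changed the background model, the marked spots, the normalization, the filter on dim probes, the probe per gene, the replicate block and the arrays used.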

Additional observations from a re-analysis of the deposited data

Results flagged for a closer look

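For 3 probes the 2 iPS arrays and the 2 MEF arrays lay on opposite sides of ES cells, with a call on each side. They were chosen by these same values, so the difference between the cell types is a description and was not tested apart from that choice. Dkk3 read -0.90 and -1.20 on the iPS arrays and 3.49 and 3.47 on the MEF arrays, a log2 difference of -4.53 in iPS cells over MEFs. The second Fzd2 probe read -1.19 and -1.08 on the iPS arrays, where it was not well above background, and 1.78 and 1.88 on the MEF arrays, and was at least 7.63-fold lower in iPS cells than in MEFs. Wnt2 read -1.09 and -0.93 on the iPS arrays, where it was not well above background, and 3.10 and 3.15 on the MEF arrays, a log2 fit of 3.13 in MEFs over ES cells; no fold is given for iPS cells. Fibroblast markers moved the same way by their brightest probes, lower in iPS cells than in ES cells for 6 of 8 genes and higher in MEFs for 8 of 8. Their part in these differences was not tested.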

How the results depend on the processing

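With normexp over all spots, counts of Wnt probes fell to 0 higher and 0 lower in MEFs over ES cells (0 of 24874 probes called in limma, 2392 at an unadjusted p under 0.05), 9 lower for iPS cells against ES cells, and 2 higher and 5 lower in iPS cells over MEFs. The further pathway list gave 0 (MEFs over ES cells) and 7 (iPS cells over MEFs). With marked spots kept as well, under that same model over all spots, the counts were 0 and 0, 9, and 2 and 6, and the list's 1, 9 and 8. Marked spots were not kept with the model fitted over unmarked spots, so their own part was not tested. A combination chosen after seeing the data, normexp over all spots without MEF replicate 1, kept direction and call for 111 of 113 single values and reversed 2 of Apc A_51_P469822 (-0.052 for MEFs against ES cells, 0.063 for iPS cells against MEFs). Those 14 high-background spots lay on that array. With the scanner software's ratio the counts were 5 higher for iPS cells and 14 higher for MEFs against ES cells, 13 higher and 23 lower in iPS cells over MEFs, and 25 for the list in iPS cells over ES cells. Calls over all tested probes rose with this ratio as well. The stricter filter on dim probes tested 42 Wnt probes and gave 3 higher in MEFs over ES cells; 1 probe per gene gave 1 higher in iPS cells over ES cells.

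Values that changed sign in iPS cells over MEFs, with normexp over all spots and with marked spots kept, were those of Sp5 (-0.67 and -0.68), Lef1 A_51_P420400 (-0.36 both), Fzd10 A_51_P233367 (-0.34 both), Fzd10 A_52_P203560 (-0.41 both), Sfrp1 A_52_P564706 (0.056 both) and Apc A_51_P469822 (0.031 and 0.032; also 0.10 with the scanner's ratio and 0.10 with quantile normalization). In MEFs over ES cells they were Apc A_51_P469822 (-0.021 and -0.024) and Ctnnb1 A_52_P424585 (0.021 and 0.046). Median centring moved the median of all probes over ES cells to 0.14 (iPS cells) and 0.16 (MEFs), and the higher share of all calls to 61.5% and 70.0% (42.8% and 50.6% as reported). In MEFs over ES cells it turned Ctnnb1 A_51_P272046 to 0.11, Ctnnb1 A_52_P424585 to 0.58, Ctnnb1 A_52_P472397 to 0.13 and Fzd2 A_51_P404077 to 0.39. Against ES cells, the iPS cells' Ctnnb1 A_51_P272046 turned to 0.33 and Apc A_51_P429446 to 0.015. In iPS cells over MEFs Apc A_52_P675171 turned to -0.039. Quantile normalization turned Apc A_51_P429446 to 0.023 in iPS cells over ES cells. The higher share of Wnt calls in MEFs over ES cells was 38.9% with the scanner's ratio, against 26.9%. The cause of these changes was not tested.

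Leaving out 1 array in turn gave ranges across 0 for Apc A_51_P469822 (-0.0021 to 0.022 for iPS cells and -0.052 to 0.18 for MEFs against ES cells, -0.17 to 0.062 in iPS cells over MEFs), Apc A_51_P429446 (-0.012 to 0.0092 in iPS cells over ES cells), Apc A_52_P675171 (-0.030 to 0.058 in iPS cells over MEFs), Ctnnb1 A_52_P424585 (-0.094 to 0.0085 in MEFs over ES cells) and Ctnnb1 A_52_P472397 (-0.29 to 0.0036 likewise), none of them called; counts ranged over 7 and 19 (MEFs over ES cells), 2 and 24 to 25 (iPS cells over ES cells), and 8 and 15 to 17 (iPS cells over MEFs), higher before lower, and the list's over 18, 14 to 17 and 21 to 22. With the replicate block all 113 single values kept direction and call, with 7 and 19, 2 and 25, and 7 and 15 Wnt probes. Same-numbered arrays did not deviate together (r = -0.11), and the labels tie nothing to the numbers. All arrays shared 1 slide, so slide could not be a block. In iPS cells 11 of the 23 ligand probes were not well above background on at least 1 array, and those dim on both have no more than a bound.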
